A study of Mus musculus with 12 samples.

Results

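The interferon-stimulated genes described here are 41 mouse genes that interferons are known to switch on, and they were chosen by name from a list of such genes. All 41 are among the 40760 genes of the count table, and all 41 had counts high enough to be tested, with at least 27 reads in the lowest library. RNA was sequenced from CD140a+ (Pdgfra+) lung mesenchymal cells of male mice in 12 libraries, 3 in each of 4 groups: WT mice given vehicle, Pear1-/- mice given vehicle, WT mice given bleomycin (bleo) and Pear1-/- mice given bleo. Bleo is a DNA-damaging drug that, given into the airways, scars the lungs of mice and is a standard model of pulmonary fibrosis. Pear1-/- mice carry a knockout-first allele in every cell, in which a gene trap inside an intron cuts the transcript short, so these mice are not a fibroblast-specific knockout. The cells were sorted on surface CD140a, which marks many lung fibroblasts. By the study's general methods the mice were young adults. The bleo dose and day and the number of mice behind each library are not stated for these libraries, so the spread between replicates may be in part technical.

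Interferons are secreted proteins that warn cells of viruses and other threats. Type I interferons, such as interferon beta, act through the receptor chains Ifnar1 and Ifnar2 and a complex containing Stat2 and Irf9 that binds the interferon-stimulated response element (ISRE), while interferon gamma acts through Ifngr1 and Ifngr2 and factors that bind gamma-activated sites (GAS). The genes switched on in this way block viral entry, translation and replication, sense viral nucleic acids, and feed back on the pathway itself, and most cell types of the lung, fibroblasts and leukocytes among them, can express them.

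Values are given as normalized counts, which the study's authors made by dividing a gene's reads by a size factor for each library. Differences are log2 fold changes from edgeR's quasi-likelihood test across 17418 genes, with p-values adjusted by the Benjamini-Hochberg method. A gene is said to rise or fall where its adjusted p was under 0.05, and to change more than 2-fold where its fold change was also over 2. The libraries held 6702948 to 10447101 reads in genes, so 3 reads, taken as the detection floor, equalled 0.287 to 0.448 CPM, the reads of a gene scaled to the library's total. The 41 genes took 0.262 to 0.304% of all reads.

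The WT vehicle libraries differed among themselves. Replicates 1 and 3 had the lowest totals of the 12 libraries, 6702948 and 7036892 reads, and the most genes over 3 reads, 25994 and 26625. Replicate 2 had 20643 such genes, within the 19576 to 20792 of Pear1-/- vehicle, and the bleo libraries had 17092 to 17580. Which of the 3 is typical of WT vehicle was not tested. Between replicates 1 and 3 of WT vehicle the chi-square per degree of freedom over genes was 1.58, and between replicate 2 and those libraries it was 21.2 and 21.8. It was 1.44 to 4.82 in Pear1-/- vehicle and 1.35 to 1.49 in the bleo groups, where counting error alone gives about 1. As the mice behind each library are not stated, the adjusted p-values rest on a spread that may leave out that between mice. Replicate 2 lay nearer to the mean of the Pear1-/- vehicle libraries than to the mean of the other WT vehicle libraries for 37 of the 41 interferon-stimulated genes and for 77.1% of all genes tested, while replicates 1 and 3 did so for 12 and 9 of the 41. Pear1, the targeted gene, was at 576, 545 and 519 normalized counts in WT vehicle, 511, 501 and 547 in Pear1-/- vehicle, 256, 239 and 266 in WT bleo and 355, 372 and 344 in Pear1-/- bleo. The vehicle groups overlapped, and WT bleo was the lowest group. Pear1 differed between the vehicle groups by -0.078 log2 units (standard error 0.073, adjusted p = 0.47) and was higher in Pear1-/- bleo than in WT bleo by 0.48 log2 units (standard error 0.077, adjusted p = 1.20e-04) in edgeR's test. Pear1 thus passed as lower in the libraries labelled Pear1-/- in neither comparison, and its level does not bear out the genotype labels. Whether a library carries another's label was not tested. The counts are over the whole gene, with exons on both sides of the trap, and reads past the trap were not analysed here. Below, WT and Pear1-/- mean the libraries so labelled, which holds for every direction between genotypes. Single-gene results that use WT vehicle are given also without replicate 2 where leaving it out changes a call or moves a called value by more than 1.5 times.

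The sorted cells carried the fibroblast receptor gene Pdgfra in every library, at 4802, 4195 and 4698 normalized counts in WT vehicle, 4166, 4203 and 4125 in Pear1-/- vehicle, 1348, 1338 and 1394 in WT bleo and 2403, 2369.9 and 2402 in Pear1-/- bleo. It was lower in every bleo library than in every vehicle library. RNA of leukocytes was also present. Ptprc, which encodes the pan-leukocyte antigen CD45, was at 3010.0, 3855 and 3043 normalized counts in WT vehicle, 4016, 3918 and 3519.5 in Pear1-/- vehicle, 7579, 7727 and 7542 in WT bleo and 3448, 3241 and 3405 in Pear1-/- bleo. WT bleo was the highest group, and the other 3 groups lay between 3010.0 and 4016. Summed over 22 leukocyte markers, none of which was at 0 in any library, the level was 26229 to 42924 in WT vehicle, 41669 to 46547 in Pear1-/- vehicle, 119060 to 120823 in WT bleo and 54896 to 56145 in Pear1-/- bleo, and the highest WT vehicle value was that of replicate 2. In Pear1-/- this sum was higher after bleo though only 7 of the 22 markers rose and 12 fell (28.9% and 33.4% of all genes). In bulk samples, fewer cells of a type and less RNA per cell cannot be told apart.

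To show the kind of sequence that interferon-activated factors are known to read, the 170 bases ahead of the start of 6 of them are printed for the opposite ends of the patterns described below: Isg15, Oas1a and Ifit3, which rose after bleo in both genotypes, Gbp7, which rose after bleo in WT only and for which the difference between genotypes passed its test, Igtp from a neighbouring GTPase family, and Irf1, which fell. Capitals mark matches to the ISRE core GAAANNGAAA on either strand and to the GAS core TTCNNNGAA, whose pattern reads the same on both strands. Sequences and starts are from RefSeq (GRCm38.p6) and run 5′ to 3′ on the gene's strand.
Isg15: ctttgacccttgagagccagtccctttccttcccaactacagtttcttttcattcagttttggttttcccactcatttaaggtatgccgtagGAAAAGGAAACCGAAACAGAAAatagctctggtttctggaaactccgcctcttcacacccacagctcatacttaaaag
Oas1a: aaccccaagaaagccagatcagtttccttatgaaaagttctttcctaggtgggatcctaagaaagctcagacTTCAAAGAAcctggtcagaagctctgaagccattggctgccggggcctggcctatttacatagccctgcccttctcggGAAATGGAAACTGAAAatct
Ifit3: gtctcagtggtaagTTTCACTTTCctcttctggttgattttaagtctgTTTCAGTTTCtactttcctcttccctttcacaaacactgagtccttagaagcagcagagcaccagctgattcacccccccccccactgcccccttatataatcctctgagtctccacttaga
Gbp7: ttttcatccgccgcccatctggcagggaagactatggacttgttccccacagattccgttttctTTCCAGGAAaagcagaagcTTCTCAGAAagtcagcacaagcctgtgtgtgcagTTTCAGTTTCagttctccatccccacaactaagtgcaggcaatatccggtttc
Igtp: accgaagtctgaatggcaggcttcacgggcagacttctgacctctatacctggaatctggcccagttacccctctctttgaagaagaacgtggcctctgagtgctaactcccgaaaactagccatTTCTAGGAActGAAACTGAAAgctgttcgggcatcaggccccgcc
Irf1: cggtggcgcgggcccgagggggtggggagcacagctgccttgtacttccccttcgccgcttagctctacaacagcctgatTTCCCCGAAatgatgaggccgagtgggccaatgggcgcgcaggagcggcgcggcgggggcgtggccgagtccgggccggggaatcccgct

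The Isg15 stretch (ENSMUSG00000035692, chr4:156200819-156200988, minus strand) holds 3 overlapping ISRE cores on the gene's strand between bases -78 and -57 from the start. Oas1a (ENSMUSG00000052776, chr5:120907526-120907695, minus strand) holds 2 overlapping ISRE cores between -20 and -5 and a GAS core from -98 to -90. Ifit3 (ENSMUSG00000074896, chr19:34583359-34583528, plus strand) holds 2 ISRE cores, both on the opposite strand, at -156 to -147 and -122 to -113. Gbp7 (ENSMUSG00000040253, chr3:142530166-142530335, plus strand) holds an ISRE core at -53 to -44 and 2 GAS cores at -106 to -98 and -87 to -79. Igtp (ENSMUSG00000078853, chr11:58199386-58199555, plus strand) holds an ISRE core at -34 to -25 beside a GAS core at -45 to -37. Irf1 (ENSMUSG00000018899, chr11:53769844-53770013, plus strand) holds a GAS core alone, at -90 to -82.

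Of the 41 genes, 31 had a RefSeq window from 250 bases before to 50 bases after the start. The ISRE core was in 18 of these 31 (58.1%), against 3.99% of all 27025 genes with a window. The GAS core was in 10 (32.3%), against 9.55% of all genes, with 6 genes holding both cores and 9 holding neither. All 6 windows of the guanylate-binding proteins and immunity-related GTPases held an ISRE core and 3 held a GAS core. Of the 18 genes with a window that rose after bleo in WT, 12 held an ISRE core, of the 5 that fell 1 did, and of the 8 without a call 5 did. These letter matches are a description and do not show that a factor binds there.

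**Figure D1:**
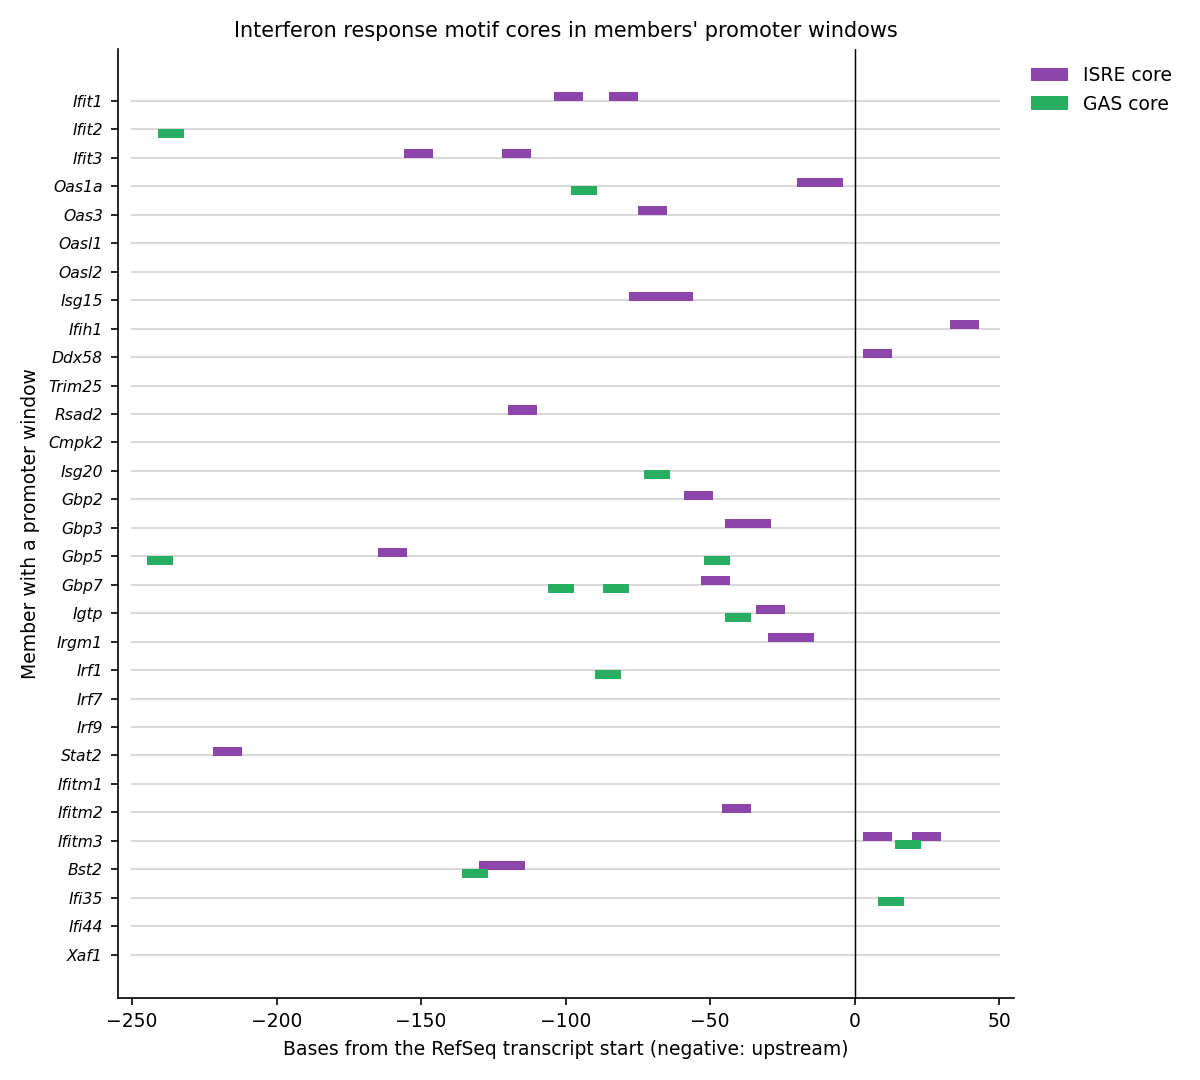
Positions of ISRE cores and GAS cores in bases from the RefSeq start, from 250 before to 50 after it, for the 31 interferon-stimulated genes with a window, where overlapping matches appear as 1 longer mark. ISRE cores were found for 18 of the genes and GAS cores for 10, most of them ahead of the start.

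After bleo, more of the 41 genes rose in WT cells than fell. In WT bleo against WT vehicle 25 rose and 5 fell, where 31.4% of all genes tested rose and 36.6% fell. The median log2 fold change of the 41 was 0.50, against -0.071 over all genes. In 8 genes the rise was more than 2-fold (10.5% of all genes), namely Oas1a, Oas2, Isg15, Dhx58, Zbp1, Mx1, Irf7 and Rtp4, and in Ifitm1 the fall was more than 2-fold (23.5% of all genes). Without WT vehicle replicate 2 Ifitm1 was no longer past 2-fold, and Bst2 and Parp14 were. Without WT vehicle replicate 2, 29 rose, with all 25 among them, and 5 fell, 4 of which had fallen before (31.7% and 44.7% of all genes in that fit). With replicate 2 as the lone WT vehicle library, a comparison that assumes it varies like the other libraries, 24 rose and 9 fell (28.2% and 31.9% of all genes). The summed leukocyte markers were also higher in WT bleo than in WT vehicle, without overlap. Of these 22 markers 11 rose and 8 fell in WT (31.4% and 36.6% of all genes), with a median of 0.34 log2 units. Their part in these counts was not tested.

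In Pear1-/- cells the genes moved in both directions after bleo. In Pear1-/- bleo against Pear1-/- vehicle 15 rose and 9 fell (28.9% and 33.4% of all genes), and the median was 0.014, against -0.048 over all genes. More than 2-fold rises were seen in 6 genes (8.38% of all genes), namely Oas1a, Oas2, Dhx58, Zbp1, Mx1 and Rtp4, and more than 2-fold falls in 4 (19.4%), namely Cmpk2, Gbp4, Irf1 and Ifitm1. All 15 genes that rose in Pear1-/- also rose in WT. Another 9 rose in WT with no call in Pear1-/-, 4 fell in both, 4 fell in Pear1-/- with no call in WT, Ifitm3 fell in WT with no call in Pear1-/-, and Gbp5 rose in WT and fell in Pear1-/-. The remaining 7, Oasl1, Usp18, Ddx58, Mx2, Igtp, Ifitm2 and Ifi35, passed in neither genotype. Of the 15 that rose in both, Ifit3, Oasl2 and Gbp3 lost the Pear1-/- call in some alternative fits, and Oasl2 and Ifi44 lost the WT call. The share of all genes in each of these joint classes was not counted.

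The change after bleo differed between the genotypes for 19 of the 41 genes, and for all 19 it was lower in Pear1-/- (19.1% of all genes tested were lower in this test, and 17.9% higher). The median difference was -0.36, against -0.0012 over all genes. It exceeded 2-fold for Oas1a, Gbp4, Gbp5 and Parp14 (7.06% of all genes), and without WT vehicle replicate 2 for Gbp7 and Stat2 in place of Gbp5. With WT vehicle replicate 2 left out, 24 genes passed, all lower and including the 19 (26.0% of all genes in that fit were lower and 20.4% higher). With replicate 2 as the lone WT vehicle library, 15 were lower, 12 of them shared, and 3 were higher, Isg20, Ifitm2 and Ifitm3 (16.8% and 16.1% of all genes). The 9 genes Ifih1, Trim25, Gbp2, Gbp4, Gbp5, Gbp7, Stat2, Parp14 and Xaf1 passed in each of the 19 alternative fits of this difference. In the same test, with all libraries, 16 of 22 leukocyte markers were lower and 0 higher.

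Set side by side after bleo, Pear1-/- libraries were lower than WT libraries for 21 genes and higher for 4 (23.9% and 22.1% of all genes), with a median of -0.31 against -0.013 over all genes. The 4 that were higher were Isg20, Ifitm2, Ifitm3 and Ifi44. More than 2-fold lower levels were seen in Gbp5 and Parp14 (8.76% of all genes). This comparison shares its WT bleo libraries with the WT bleo against WT vehicle comparison and its Pear1-/- bleo libraries with the other, so the counts are not independent. Leukocyte markers moved alongside: 15 of the 22 were lower and 1 was higher in Pear1-/- bleo than in WT bleo, and the sums did not overlap. Of 10 fibroblast markers 5 were higher and 1 lower, with a median difference of 0.38 log2 units. Their sums were 112141 to 113209 in WT bleo, 289125 to 298679 in Pear1-/- bleo and 152197 to 175388 in the vehicle libraries. After bleo 8 of the 10 fell and 2 rose in WT (36.6% and 31.4% of all genes), with a median of -1.41. In Pear1-/- 7 fell and 3 rose (33.4% and 28.9% of all genes), with a median of -1.19 and a largest rise of 2.18. The Pear1-/- bleo sum was thus above vehicle while the median change was a fall. Of 7 epithelial markers 4 were lower and 1 higher, with sums of 14260 to 14474 in WT bleo, 6384 to 6498 in Pear1-/- bleo and 37873 to 61467 in the vehicle libraries. Of 6 endothelial markers 5 fell after bleo in WT and 6 in Pear1-/- (36.6% and 33.4% of all genes), with sums of 2029 to 2168 in WT bleo, 1964 to 2146 in Pear1-/- bleo and 3326 to 4226 in the vehicle libraries. The part of these markers' cells in the interferon-stimulated genes' values was not tested.

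Between the vehicle groups 1 gene was higher and 1 lower. Bst2 was higher in Pear1-/- vehicle and Rsad2 lower (0.855% of all genes were higher and 3.65% lower), and the median was 0.10, against -0.0039 over all genes. Leaving out a single vehicle library, whichever of the 5 besides WT vehicle replicate 2, ended both calls, at 0.33 to 0.49 log2 units for Bst2 (adjusted p = 0.107 to 0.19) and -0.53 to -0.66 for Rsad2 (adjusted p = 0.101 to 0.19). In those 5 edgeR fits 0 of all genes passed, and 2955 to 5868 had an unadjusted p under 0.05, so the lost calls are not particular to these genes. Without WT vehicle replicate 2, however, 19 genes were higher and 7 lower in Pear1-/- vehicle, a fit in which 25.5% of all genes were higher and 29.7% lower. This library thus decided the count between the vehicle groups for the 41 and for all genes alike.

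**Figure D2:**
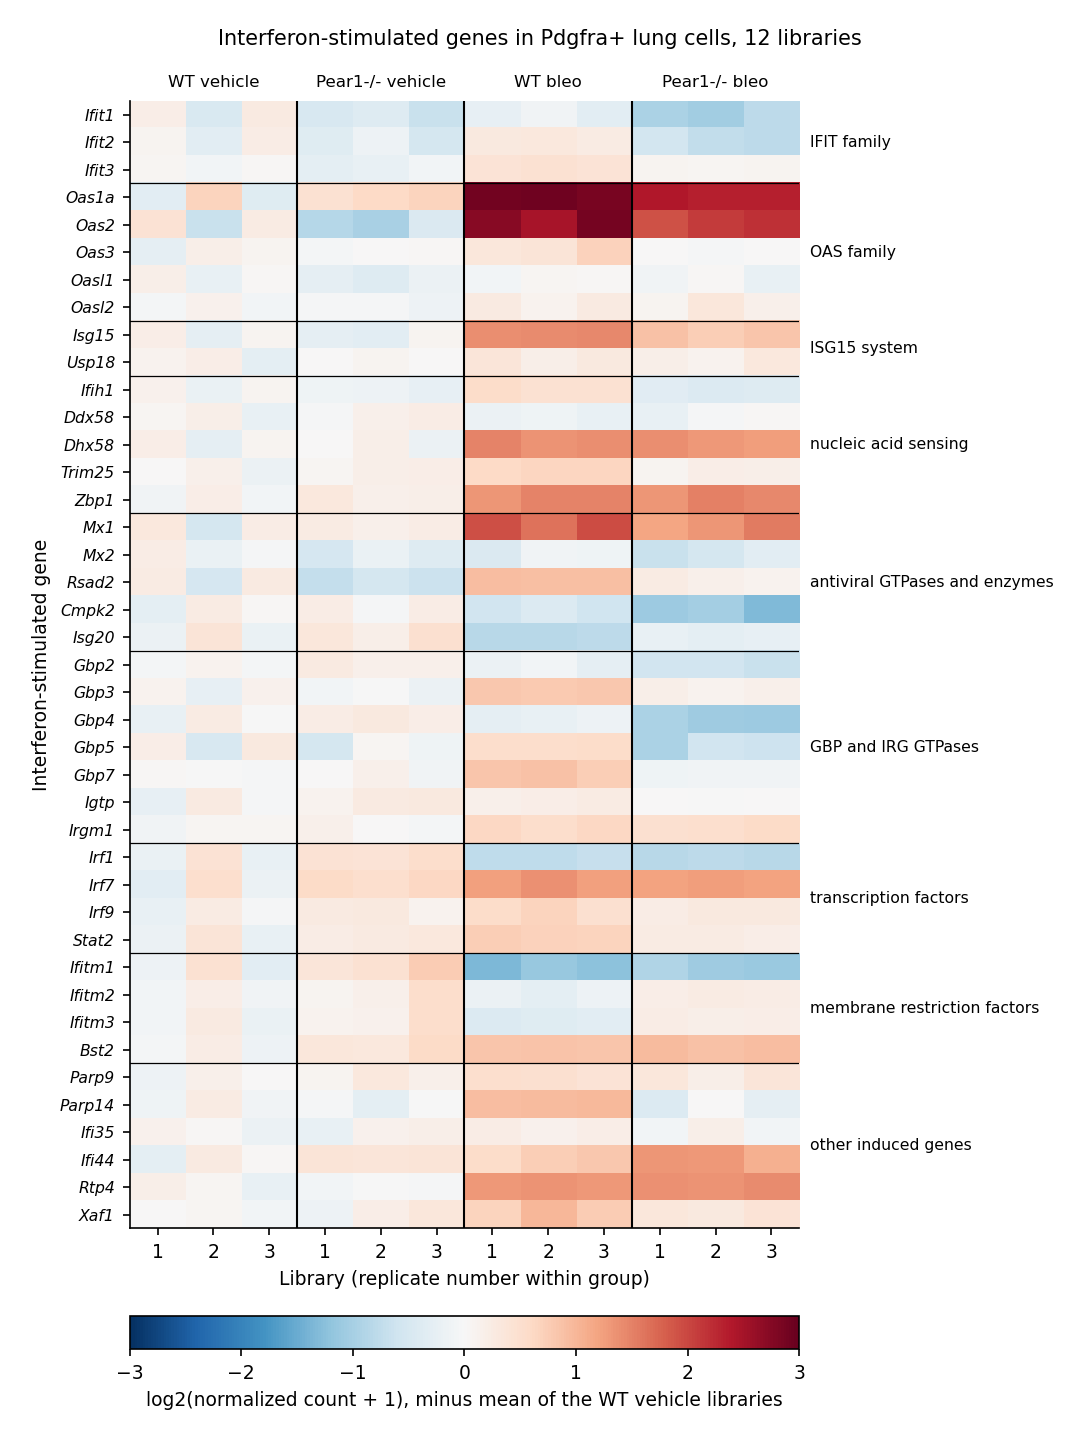
Heat map of the 41 interferon-stimulated genes, by role, in the 12 libraries, where colour is log2(normalized count + 1) minus the mean of the WT vehicle libraries. The 3 WT bleo libraries are above the WT vehicle mean for most genes, and WT vehicle replicate 2 is nearer the Pear1-/- vehicle mean than the mean of its own group's other libraries for 37 of the 41.

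The ligands were measured in the same libraries. Of 12 interferon genes listed, only Ifnb1 and Ifng had counts high enough to test, and none of the other 10 had more than 11 reads in a library. Ifnb1, which encodes interferon beta, was at 319, 181 and 329 normalized counts in WT vehicle, 196, 173 and 227 in Pear1-/- vehicle, 234, 253 and 267 in WT bleo and 76.4, 61.9 and 81.0 in Pear1-/- bleo. Its WT vehicle and WT bleo values overlapped, and the 3 Pear1-/- bleo values were the lowest of the 12. The difference after bleo in WT was -0.12 log2 units (standard error 0.18, adjusted p = 0.573). It turned from -0.29 log2 units (adjusted p = 0.0122) without WT vehicle replicate 2 to 0.49 log2 units (adjusted p = 0.00545) with it as the lone WT vehicle library. The direction in WT thus rests on that library. The difference in Pear1-/- was -1.44 log2 units (standard error 0.20, adjusted p = 2.34e-05) in edgeR's test. Pear1-/- bleo was lower than WT bleo with a difference of -1.80 log2 units (standard error 0.20, adjusted p = 3.22e-06).

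Ifng, the interferon made mainly by T and NK cells, was at 18.2, 35.5 and 24.0 normalized counts in WT vehicle, 40.7, 43.6 and 37.1 in Pear1-/- vehicle, 5.51, 14.3 and 12.1 in WT bleo and 2.66, 3.44 and 2.86 in Pear1-/- bleo. It was lowest in Pear1-/- bleo, at no more than 3.44 normalized counts, without overlap between the vehicle and bleo libraries of either genotype. It fell after bleo in WT with a change of -1.29 log2 units (standard error 0.36, adjusted p = 0.00486) and in Pear1-/- with a change of -3.70 log2 units (standard error 0.41, adjusted p = 1.74e-06) in edgeR's test. With all libraries neither tested ligand gene passed as higher in WT. These values are RNA of the sorted cells, and the part of interferon in the interferon-stimulated genes' values was not tested.

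Among 9 receptor and signalling genes, 6 rose and 2 fell after bleo in WT, and 3 rose and 3 fell in Pear1-/-. In Pear1-/- these shares, 33.3% each way, were near the 28.9% and 33.4% of all genes, while in WT 66.7% and 22.2% stood against 31.4% and 36.6%. Ifnar1, a chain of the type I receptor, was at 1142, 1171 and 1059 normalized counts in WT vehicle, 1142, 1180.0 and 1171 in Pear1-/- vehicle, 1944, 1918 and 1928 in WT bleo and 1566, 1556 and 1553 in Pear1-/- bleo. All bleo libraries were above all vehicle libraries, and the WT bleo libraries were above the Pear1-/- bleo libraries. It rose by 0.79 log2 units (standard error 0.063, adjusted p = 3.18e-08) in WT and 0.42 log2 units (standard error 0.063, adjusted p = 3.21e-05) in Pear1-/- in edgeR's test. Ifnar2, its partner chain, was at 626, 699 and 693 normalized counts in WT vehicle, 714, 681 and 733 in Pear1-/- vehicle, 937, 916 and 989 in WT bleo and 647, 642 and 672 in Pear1-/- bleo. It was highest in WT bleo, with Pear1-/- bleo within the range of the vehicle libraries. It rose in WT by 0.51 log2 units (standard error 0.068, adjusted p = 1.10e-05), and its difference in Pear1-/- was -0.11 log2 units (standard error 0.068, adjusted p = 0.16) in edgeR's test.

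Of the receptor chains for interferon gamma, Ifngr1, the ligand-binding chain, was at 3345, 3993 and 3499.7 normalized counts in WT vehicle, 3901, 3963 and 3939.7 in Pear1-/- vehicle, 2978, 3112 and 3042 in WT bleo and 2731, 2778 and 2753 in Pear1-/- bleo. Its bleo libraries lay below all vehicle libraries in both genotypes. It fell in WT with a change of -0.24 log2 units (standard error 0.068, adjusted p = 0.00657), a call lost without WT vehicle replicate 2 (-0.093, adjusted p = 0.0992). In Pear1-/- it fell with a change of -0.51 log2 units (standard error 0.068, adjusted p = 1.23e-05) in edgeR's test. Ifngr2, the signalling chain, was at 472, 615 and 489 normalized counts in WT vehicle, 658, 594 and 628 in Pear1-/- vehicle, 1147, 1050.4 and 1013 in WT bleo and 797, 809.7 and 785 in Pear1-/- bleo. All bleo libraries were above all vehicle libraries, and WT bleo was above Pear1-/- bleo. In WT it rose by 1.04 log2 units (standard error 0.091, adjusted p = 1.04e-07) and in Pear1-/- by 0.35 log2 units (standard error 0.09, adjusted p = 0.00328), and Pear1-/- bleo was below WT bleo with a difference of -0.44 log2 units (adjusted p = 8.85e-04).

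**Figure D3:**
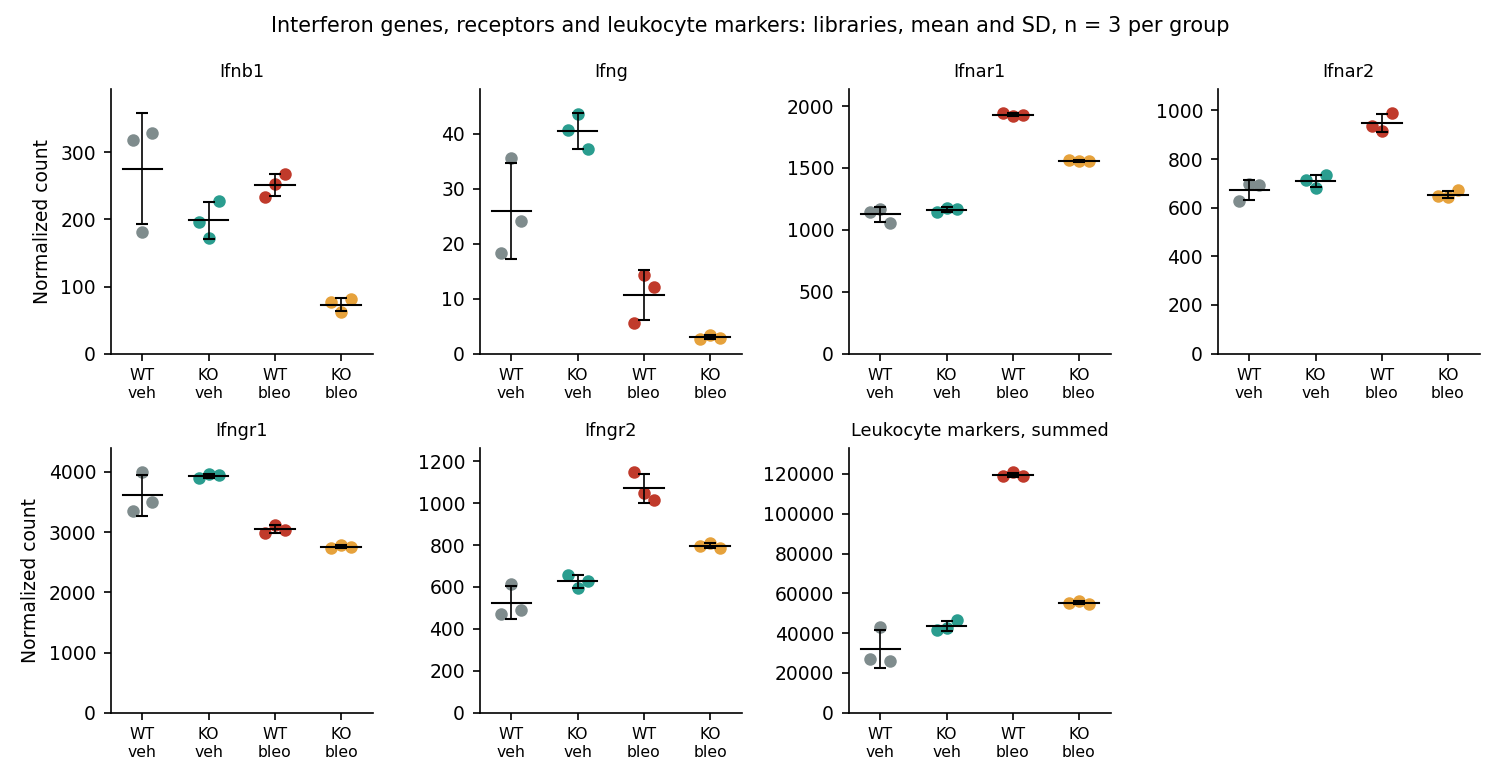
Normalized counts in each of the 12 libraries (points) with the group mean and SD for Ifnb1, Ifng, Ifnar1, Ifnar2, Ifngr1, Ifngr2 and the sum of 22 leukocyte markers, where KO stands for Pear1-/-. Both ligand genes are lowest in Pear1-/- bleo, and the leukocyte sum is highest in WT bleo at 119060 to 120823.

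The factors that carry the signal into the nucleus were represented by Stat2, Irf9, Irf7 and Irf1. In WT 3 rose and Irf1 fell (31.4% and 36.6% of all genes). In Pear1-/- 1 rose and 1 fell, near the 28.9% and 33.4% of all genes. The change after bleo was lower in Pear1-/- for all 4 (19.1% of all genes). Stat2, the type I pathway's own STAT, was at 400.2, 599 and 392 normalized counts in WT vehicle, 532, 547 and 569.7 in Pear1-/- vehicle, 759, 737 and 721 in WT bleo and 536, 539.8 and 519 in Pear1-/- bleo. WT bleo was the highest group, and Pear1-/- bleo lay at the level of Pear1-/- vehicle. Its level rose in WT by 0.68 log2 units (standard error 0.12, adjusted p = 1.32e-04), its difference in Pear1-/- was -0.043 log2 units (standard error 0.12, adjusted p = 0.768), and the difference between genotypes was -0.72 log2 units (standard error 0.17, adjusted p = 0.00362) in edgeR's test. Irf9, the DNA-binding partner in the complex, rose in WT by 0.56 log2 units (standard error 0.1, adjusted p = 1.42e-04) and had a difference of 0.052 log2 units (standard error 0.099, adjusted p = 0.662) in Pear1-/-.

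Irf7, which amplifies type I interferon production, was at 158, 279 and 175 normalized counts in WT vehicle, 293, 281 and 307 in Pear1-/- vehicle, 467, 514 and 465 in WT bleo and 454, 474 and 456 in Pear1-/- bleo. Both bleo groups overlapped each other and lay above all vehicle libraries, and WT vehicle replicate 2 lay at the level of Pear1-/- vehicle rather than near its 2 partners. It rose in WT by 1.24 log2 units (standard error 0.14, adjusted p = 2.26e-06) and in Pear1-/- by 0.66 log2 units (standard error 0.14, adjusted p = 7.36e-04) in edgeR's test. The difference between genotypes was -0.58 log2 units (standard error 0.20, adjusted p = 0.032), and -0.97 log2 units (adjusted p = 1.58e-08) without WT vehicle replicate 2. It lost its call in 14 of its 19 alternative fits, among them those without any one of the other 11 libraries (-0.43 to -0.67, adjusted p = 0.0511 to 0.0798).

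Irf1, an early factor that interferon gamma induces strongly, was at 2086, 3261 and 2050.4 normalized counts in WT vehicle, 3264, 3175 and 3449 in Pear1-/- vehicle, 1426, 1415 and 1484 in WT bleo and 1352, 1391 and 1344 in Pear1-/- bleo. It was lower in all bleo libraries than in all vehicle libraries, with WT vehicle replicate 2 again among the Pear1-/- vehicle values. It fell in WT with a change of -0.76 log2 units (standard error 0.13, adjusted p = 1.11e-04) and in Pear1-/- with a change of -1.27 log2 units (standard error 0.13, adjusted p = 8.81e-07) in edgeR's test. Without WT vehicle replicate 2 the fall in WT was -0.44 log2 units (adjusted p = 5.24e-09). Between genotypes the difference was -0.51 log2 units (standard error 0.18, adjusted p = 0.0419), -0.84 log2 units (adjusted p = 1.29e-12) without that library, and short of the threshold in each fit without any one of the other 11 libraries (-0.39 to -0.59, adjusted p = 0.0653 to 0.101).

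The IFIT proteins bind foreign RNA and hold up its translation. Ifit1 was at 626, 397 and 659 normalized counts in WT vehicle, 395, 420.2 and 345 in Pear1-/- vehicle, 462, 509 and 442 in WT bleo and 285, 263 and 316 in Pear1-/- bleo. WT bleo overlapped WT vehicle, whose replicate 2 was low, and Pear1-/- bleo was the lowest group. In WT the difference after bleo was -0.24 log2 units (standard error 0.15, adjusted p = 0.167), turning to 0.26 log2 units (adjusted p = 0.0489) with replicate 2 as the lone WT vehicle library and to -0.37 log2 units (adjusted p = 8.97e-05) without it. It fell in Pear1-/- with a change of -0.42 log2 units (standard error 0.15, adjusted p = 0.0252), a call lost without Pear1-/- vehicle replicate 2 (-0.38, adjusted p = 0.0604) or Pear1-/- bleo replicate 2 (-0.38, adjusted p = 0.0643) in edgeR's test, with limma (adjusted p = 0.0646) and with library size as the only scaling (adjusted p = 0.0945).

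Ifit2 was at 629, 476 and 695 normalized counts in WT vehicle, 459, 533 and 414 in Pear1-/- vehicle, 729, 737 and 698 in WT bleo and 403, 357 and 342 in Pear1-/- bleo. WT bleo was narrowly above the highest WT vehicle library, and Pear1-/- bleo was below every other library. It fell in Pear1-/- with a change of -0.35 log2 units (standard error 0.13, adjusted p = 0.0255), a call lost without Pear1-/- vehicle replicate 2 (-0.27, adjusted p = 0.0924), Pear1-/- bleo replicate 2 (-0.34, adjusted p = 0.0522) or Pear1-/- bleo replicate 3 (-0.31, adjusted p = 0.0695), with limma (adjusted p = 0.0615) and with library size as the only scaling (adjusted p = 0.107). The WT difference was 0.28 log2 units (standard error 0.12, adjusted p = 0.0551), and 0.20 log2 units (adjusted p = 0.0252) without WT vehicle replicate 2. With replicate 2 as the lone WT vehicle library it was 0.62 log2 units (adjusted p = 1.67e-05). The difference between genotypes was -0.63 log2 units (standard error 0.18, adjusted p = 0.0115) in edgeR's test, a call lost with library size as the only scaling (-0.46, adjusted p = 0.102).

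Ifit3 was at 268, 246 and 264 normalized counts in WT vehicle, 213, 224 and 243 in Pear1-/- vehicle, 345, 355 and 347 in WT bleo and 276, 268 and 276 in Pear1-/- bleo. It was highest in WT bleo, with no overlap between bleo and vehicle within either genotype. In WT it rose by 0.44 log2 units (standard error 0.076, adjusted p = 1.11e-04) and in Pear1-/- by 0.28 log2 units (standard error 0.077, adjusted p = 0.00564), the latter lost without Pear1-/- vehicle replicate 1 (0.21, adjusted p = 0.0672) in edgeR's test. In Pear1-/- bleo all 3 IFIT genes were lower than in WT bleo (23.9% of all genes were), Ifit2 by the most, at a difference of -0.99 log2 units (standard error 0.12, adjusted p = 1.15e-05). Ifit3 has the close copy Ifit3b and Ifit1 the close copy Ifit1bl1, so reads may have been split between them.

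The oligoadenylate synthetases make the second messenger that activates RNase L. Of the 5 genes, 4 rose in WT and 3 in Pear1-/- (31.4% and 28.9% of all genes). Oas1a was at 41.2, 82.2 and 40.1 normalized counts in WT vehicle, 71.0, 77.9 and 81.8 in Pear1-/- vehicle, 389, 397 and 378 in WT bleo and 277, 265 and 263 in Pear1-/- bleo. The bleo libraries were far above all vehicle libraries, the WT bleo libraries were above the Pear1-/- bleo libraries, and WT vehicle replicate 2 was at the Pear1-/- vehicle level. After bleo it rose in WT by 2.81 log2 units (standard error 0.17, adjusted p = 1.16e-09), the largest change among the 41 genes in WT with all libraries. With WT vehicle replicate 2 as the lone WT vehicle library it rose by 2.25, less than Oas2 at 3.41. In Pear1-/- it rose by 1.81 log2 units (standard error 0.16, adjusted p = 1.53e-07) in edgeR's test. Between genotypes the difference was -1.01 log2 units (standard error 0.24, adjusted p = 0.00443), -1.54 log2 units (adjusted p = 1.00e-08) without WT vehicle replicate 2, and -0.43 (adjusted p = 0.0924) with replicate 2 as the lone WT vehicle library.

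Oas2 was at 67.9, 31.5 and 59.5 normalized counts in WT vehicle, 27.5, 25.0 and 37.1 in Pear1-/- vehicle, 339, 284 and 374 in WT bleo and 191, 219 and 235 in Pear1-/- bleo. Bleo and vehicle libraries were far apart in both genotypes, and the difference between WT bleo and Pear1-/- bleo was smaller but without overlap. Its level rose in WT by 2.68 log2 units (standard error 0.20, adjusted p = 1.22e-08) and in Pear1-/- by 2.86 log2 units (standard error 0.22, adjusted p = 2.60e-08) in edgeR's test. The difference between genotypes was 0.18 log2 units (standard error 0.31, adjusted p = 0.682).

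Oasl2, a relative that interferon also induces, was at 394, 452 and 389 normalized counts in WT vehicle, 399.6, 401 and 370.0 in Pear1-/- vehicle, 493, 441 and 492 in WT bleo and 437, 519 and 455 in Pear1-/- bleo. Its WT bleo and WT vehicle libraries overlapped. It rose by 0.22 log2 units (standard error 0.088, adjusted p = 0.0384) in WT and 0.27 log2 units (standard error 0.087, adjusted p = 0.0129) in Pear1-/- in edgeR's test, and both calls were fragile. The WT call was lost in 10 of its 14 alternative fits, among them those without WT vehicle replicate 1 (0.19, adjusted p = 0.1) or 3 (0.18, adjusted p = 0.115) or WT bleo replicate 1 (0.23, adjusted p = 0.0889) or 3 (0.23, adjusted p = 0.0858), and the value was 0.36 log2 units (adjusted p = 3.12e-04) without WT vehicle replicate 2. The Pear1-/- call was lost without any one of the 3 vehicle libraries (0.23 to 0.27, adjusted p = 0.059 to 0.0956) or without Pear1-/- bleo replicate 2 (0.18, adjusted p = 0.177).

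Oas3 rose in WT by 0.48 log2 units (standard error 0.15, adjusted p = 0.00961), a call lost when each pair of groups was fitted alone (0.45, adjusted p = 0.0509) and with WT vehicle replicate 2 as the lone WT vehicle library (0.31, adjusted p = 0.163). Oasl1 had a difference of 0.01 log2 units (standard error 0.12, adjusted p = 0.942). Oas1a belongs to a cluster of near copies. Among them Oas1g, which is outside the 41, was at 15.8, 12.2 and 13.7 normalized counts in WT vehicle, 11.4, 9.28 and 15.3 in Pear1-/- vehicle, 136, 125 and 149 in WT bleo and 66.6, 60.2 and 59.1 in Pear1-/- bleo. It rose in WT by 3.31 log2 units (standard error 0.19, adjusted p = 7.74e-10) in edgeR's test. Reads may have been split between the copies, which was not measured, so the single values of this cluster are uncertain.

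Isg15 encodes a ubiquitin-like protein that is attached to other proteins after interferon. It was at 241, 172 and 219.8 normalized counts in WT vehicle, 172, 168 and 220.4 in Pear1-/- vehicle, 550.1, 557 and 572 in WT bleo and 384, 352 and 375 in Pear1-/- bleo. The bleo libraries were above all vehicle libraries and the WT bleo libraries above the Pear1-/- bleo libraries. It rose in WT by 1.42 log2 units (standard error 0.12, adjusted p = 4.38e-08) and in Pear1-/- by 0.99 log2 units (standard error 0.12, adjusted p = 3.53e-06) in edgeR's test, and was lower in Pear1-/- bleo than in WT bleo with a difference of -0.61 log2 units (standard error 0.11, adjusted p = 2.95e-04). The difference between genotypes in its change after bleo did not pass the test, at -0.43 log2 units (standard error 0.17, adjusted p = 0.0553), and did without WT vehicle replicate 2, at -0.38 log2 units (adjusted p = 0.0197). It passed in 8 of its 19 alternative fits. Usp18, the protease that removes Isg15 and damps the receptor, had a difference of 0.28 log2 units (standard error 0.12, adjusted p = 0.0592) in WT, and of 0.45 log2 units (adjusted p = 0.00348) without WT vehicle replicate 2.

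The cytosolic sensors detect viral RNA and DNA. Ifih1 (MDA5), a sensor of long double-stranded RNA, was at 669, 536 and 654 normalized counts in WT vehicle, 559.6, 551 and 517 in Pear1-/- vehicle, 904, 843 and 849 in WT bleo and 487, 466 and 475 in Pear1-/- bleo. WT bleo was above and Pear1-/- bleo below all other libraries. In WT it rose by 0.50 log2 units (standard error 0.083, adjusted p = 8.76e-05), its difference in Pear1-/- was -0.19 log2 units (standard error 0.085, adjusted p = 0.0684), and the difference between genotypes was -0.68 log2 units (standard error 0.12, adjusted p = 4.13e-04) in edgeR's test. Trim25, a ubiquitin ligase that helps the sensor RIG-I signal, was at 967, 1067 and 843 normalized counts in WT vehicle, 1002, 1072 and 1090.2 in Pear1-/- vehicle, 1434, 1496 and 1482 in WT bleo and 1018, 1097 and 1072 in Pear1-/- bleo. WT bleo stood alone above the other 3 groups, which overlapped. After bleo it rose in WT by 0.63 log2 units (standard error 0.081, adjusted p = 6.57e-06), had a difference of 0.014 log2 units (standard error 0.081, adjusted p = 0.886) in Pear1-/-, and differed between genotypes by -0.61 log2 units (standard error 0.11, adjusted p = 6.99e-04).

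Zbp1, a sensor of Z-form nucleic acids that can trigger cell death, was at 136, 168 and 139.7 normalized counts in WT vehicle, 183, 165 and 167 in Pear1-/- vehicle, 370.1, 414 and 413 in WT bleo and 373, 425 and 403 in Pear1-/- bleo. WT bleo and Pear1-/- bleo overlapped and were both above all vehicle libraries. Its level rose in WT by 1.44 log2 units (standard error 0.097, adjusted p = 4.77e-09) and in Pear1-/- by 1.22 log2 units (standard error 0.094, adjusted p = 2.94e-08) in edgeR's test. Dhx58 (LGP2), a helper of the RNA sensors, was at 91.0, 64.9 and 83.6 normalized counts in WT vehicle, 79.5, 89.1 and 69.8 in Pear1-/- vehicle, 225, 202 and 209 in WT bleo and 209.6, 195 and 191 in Pear1-/- bleo. Every bleo library was above every vehicle library. It rose by 1.43 log2 units (standard error 0.13, adjusted p = 1.30e-07) in WT and 1.32 log2 units (standard error 0.13, adjusted p = 3.47e-07) in Pear1-/-. Its difference between genotypes, -0.11 log2 units (standard error 0.18, adjusted p = 0.672), had a 95% interval from -0.47 to 0.25 log2 units. Ddx58, which encodes RIG-I itself, passed in neither genotype, at a difference of -0.17 log2 units (standard error 0.10, adjusted p = 0.149) in WT. Its value in WT was -0.016 log2 units (adjusted p = 0.88) without WT vehicle replicate 2 and -0.33 log2 units (adjusted p = 0.00948) with it as the lone WT vehicle library.

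**Figure D4:**
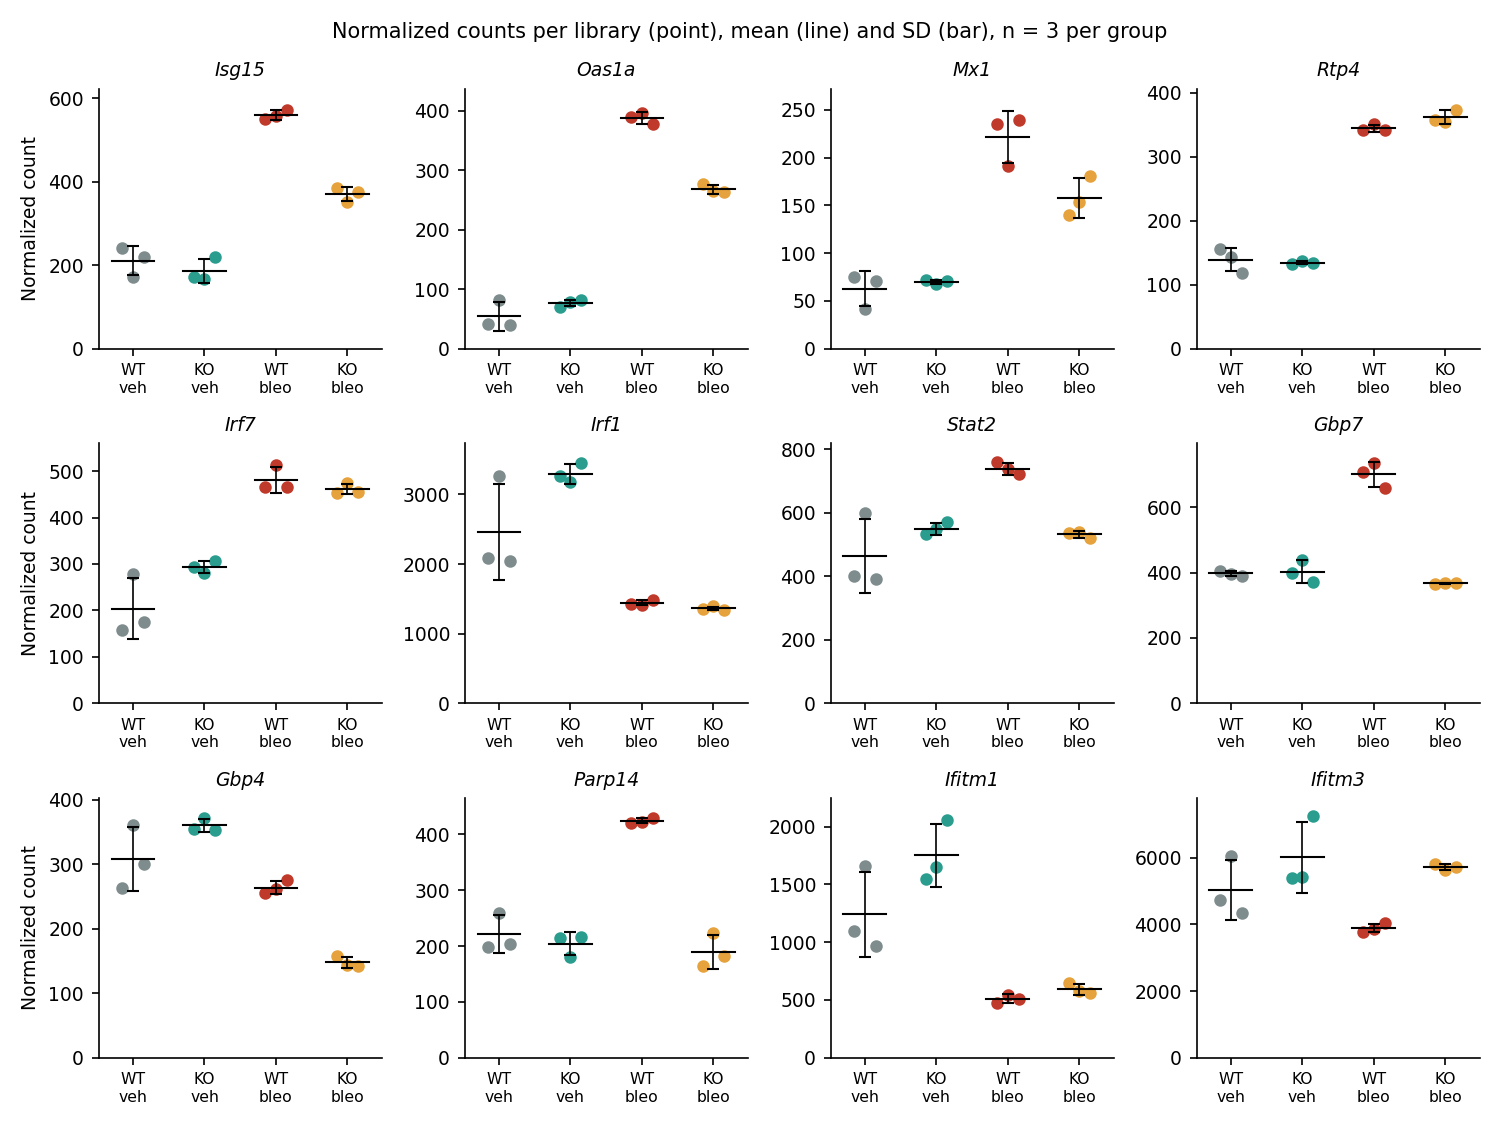
Normalized counts in each of the 12 libraries (points) with the group mean and SD for Isg15, Oas1a, Mx1, Rtp4, Irf7, Irf1, Stat2, Gbp7, Gbp4, Parp14, Ifitm1 and Ifitm3, where KO stands for Pear1-/-. Rtp4 lies at 341 to 374 in both bleo groups, Gbp7 and Parp14 are highest in WT bleo, and Irf1 and Ifitm1 are lowest in the bleo groups.

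Among 5 antiviral GTPases and enzymes, 2 rose and 2 fell in each genotype, near the shares of all genes (31.4% and 36.6% in WT, 28.9% and 33.4% in Pear1-/-). Mx1, a GTPase that traps viral ribonucleoproteins, was at 75.2, 41.6 and 71.0 normalized counts in WT vehicle, 72.0, 67.7 and 70.9 in Pear1-/- vehicle, 235, 191 and 239 in WT bleo and 139, 153 and 181 in Pear1-/- bleo. All bleo libraries were above all vehicle libraries, and WT bleo was above Pear1-/- bleo. It rose in WT by 1.85 log2 units (standard error 0.18, adjusted p = 2.38e-07) and in Pear1-/- by 1.17 log2 units (standard error 0.17, adjusted p = 3.19e-05) in edgeR's test. Its level in Pear1-/- bleo was lower than in WT bleo with a difference of -0.51 log2 units (standard error 0.15, adjusted p = 0.0129), a call lost without Pear1-/- bleo replicate 1 (-0.44, adjusted p = 0.0559) and with limma (adjusted p = 0.0795). Its difference between genotypes, -0.68 log2 units (standard error 0.25, adjusted p = 0.0443), was lost in 10 of its 19 alternative fits, among them those without Pear1-/- vehicle replicate 1 or 3, WT bleo replicate 1 or 3, or Pear1-/- bleo replicate 1 or 2 (-0.66 to -0.73, adjusted p = 0.0508 to 0.0641).

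Rsad2 (viperin), which makes a chain-terminating nucleotide, was at 338, 202 and 346 normalized counts in WT vehicle, 175, 198 and 183 in Pear1-/- vehicle, 546, 540.5 and 536 in WT bleo and 338, 319.8 and 309.8 in Pear1-/- bleo. WT bleo was the highest group, WT vehicle replicate 2 was well below replicates 1 and 3, and Pear1-/- vehicle was the lowest group. In WT it rose by 0.89 log2 units (standard error 0.14, adjusted p = 5.37e-05) and in Pear1-/- by 0.80 log2 units (standard error 0.15, adjusted p = 2.74e-04) in edgeR's test. Cmpk2, the neighbouring kinase gene that interferon induces with it, moved the other way, at 116, 169 and 145 normalized counts in WT vehicle, 167, 139 and 165 in Pear1-/- vehicle, 94.6, 106 and 93.1 in WT bleo and 66.6, 69.6 and 56.2 in Pear1-/- bleo. The bleo libraries were below all vehicle libraries in both genotypes and lowest in Pear1-/- bleo. It fell in WT with a change of -0.55 log2 units (standard error 0.14, adjusted p = 0.00345), or -0.35 log2 units (adjusted p = 0.031) without WT vehicle replicate 2, and in Pear1-/- with a change of -1.28 log2 units (standard error 0.15, adjusted p = 2.72e-06).

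Isg20, an exonuclease that degrades RNA, was at 320.2, 476 and 318 normalized counts in WT vehicle, 465, 413 and 511 in Pear1-/- vehicle, 206, 204 and 211 in WT bleo and 313, 297 and 306 in Pear1-/- bleo. It was lowest in WT bleo, and every Pear1-/- bleo library was below every vehicle library. It fell in WT with a change of -0.84 log2 units (standard error 0.13, adjusted p = 5.60e-05), or -0.55 log2 units (adjusted p = 5.20e-06) without WT vehicle replicate 2, and in Pear1-/- with a change of -0.59 log2 units (standard error 0.13, adjusted p = 8.21e-04) in edgeR's test. Unlike most of the 41 it was higher in Pear1-/- bleo than in WT bleo, by 0.55 log2 units (standard error 0.13, adjusted p = 0.0035). Mx2 passed in neither genotype, at a difference of -0.21 log2 units (standard error 0.14, adjusted p = 0.192) in WT.

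The guanylate-binding proteins (GBPs) and immunity-related GTPases (IRGs), which attack the vacuoles of intracellular pathogens and respond strongly to interferon gamma, were 7 of the 41. Of these, 4 rose in WT (31.4% of all genes). In Pear1-/- 2 rose and 3 fell, near the 28.9% and 33.4% of all genes. Between the bleo groups 5 were lower in Pear1-/- bleo than in WT bleo (23.9% of all genes). For 6 of the 7 the change after bleo differed between genotypes (19.1% of all genes were lower), though for Igtp in few of the alternative fits, the exception being Irgm1, at a difference of -0.12 log2 units (standard error 0.12, adjusted p = 0.454). Summed over the 7 genes, levels were 2101.7 to 2248.6 in WT vehicle, 2249.2 to 2387.9 in Pear1-/- vehicle, 2801.3 to 2888.1 in WT bleo and 1900.5 to 1912.6 in Pear1-/- bleo.

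Gbp7 was at 406, 396 and 390.4 normalized counts in WT vehicle, 399.6, 439.7 and 370.0 in Pear1-/- vehicle, 706, 735 and 660.1 in WT bleo and 365, 369 and 367 in Pear1-/- bleo. WT bleo stood alone above the other groups. After bleo it rose in WT by 0.83 log2 units (standard error 0.075, adjusted p = 1.39e-07), had a difference of -0.13 log2 units (standard error 0.076, adjusted p = 0.14) in Pear1-/-, and differed between genotypes by -0.96 log2 units (standard error 0.11, adjusted p = 6.95e-06) in edgeR's test. Gbp4 was at 263, 361 and 301 normalized counts in WT vehicle, 355, 372 and 354 in Pear1-/- vehicle, 255, 261 and 275 in WT bleo and 157, 144 and 142 in Pear1-/- bleo. Its WT groups overlapped, and Pear1-/- bleo was below all other libraries. It fell in Pear1-/- with a change of -1.28 log2 units (standard error 0.10, adjusted p = 5.41e-08), had a difference of -0.22 log2 units (standard error 0.10, adjusted p = 0.066) in WT, and differed between genotypes by -1.06 log2 units (standard error 0.14, adjusted p = 4.72e-05). Without WT vehicle replicate 2 the WT difference of Gbp4 was -0.023 log2 units (adjusted p = 0.838), with it as the lone WT vehicle library -0.44 log2 units (adjusted p = 9.52e-04). It passed as lower in 4 of its 14 alternative fits.

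Gbp5, which also promotes inflammasome activity, was at 106, 66.0 and 112 normalized counts in WT vehicle, 63.4, 95.6 and 84.0 in Pear1-/- vehicle, 132, 134 and 136 in WT bleo and 47.1, 61.9 and 59.1 in Pear1-/- bleo. WT bleo was the highest group and Pear1-/- bleo the lowest. Its level rose in WT by 0.52 log2 units (standard error 0.19, adjusted p = 0.0213), a call lost with DESeq2 (0.51, adjusted p = 0.0577), with library size as the only scaling (0.41, adjusted p = 0.0945) and when each pair of groups was fitted alone (0.49, adjusted p = 0.0566). It fell in Pear1-/- with a change of -0.53 log2 units (standard error 0.20, adjusted p = 0.0343), a call lost without Pear1-/- vehicle replicate 2 (-0.41, adjusted p = 0.122) or 3 (-0.51, adjusted p = 0.0618) or Pear1-/- bleo replicate 1 (-0.43, adjusted p = 0.1), with DESeq2 (adjusted p = 0.0693), with limma (adjusted p = 0.0581) and with library size as the only scaling (adjusted p = 0.0843). Its difference between genotypes, -1.05 log2 units (standard error 0.28, adjusted p = 0.00784), passed in all 19 of its alternative fits.

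Gbp2, per kilobase of exon the most abundant of the GBPs over all libraries but not in WT bleo, was at 504, 560.1 and 503 normalized counts in WT vehicle, 625, 576 and 578 in Pear1-/- vehicle, 462, 497 and 429 in WT bleo and 348, 352 and 329 in Pear1-/- bleo. Pear1-/- bleo was below all other libraries, and WT bleo was slightly below WT vehicle. It fell in Pear1-/- with a change of -0.78 log2 units (standard error 0.077, adjusted p = 5.08e-07) and had a difference of -0.16 log2 units (standard error 0.077, adjusted p = 0.0706) in WT in edgeR's test. The WT difference was -0.046 log2 units (adjusted p = 0.605) without WT vehicle replicate 2 and -0.26 log2 units (adjusted p = 0.0211) with it as the lone WT vehicle library. It passed as lower in 3 of its 14 alternative fits. Gbp3 rose in WT by 0.81 log2 units (standard error 0.091, adjusted p = 1.46e-06) and in Pear1-/- by 0.25 log2 units (standard error 0.091, adjusted p = 0.0289), the latter lost without any one of 5 libraries, Pear1-/- vehicle replicates 1 and 3 and the 3 Pear1-/- bleo replicates (0.19 to 0.25, adjusted p = 0.0552 to 0.101). Irgm1 rose in both, by 0.61 in WT and 0.49 in Pear1-/- in log2 terms. Igtp passed in neither, at a difference of 0.20 log2 units (adjusted p = 0.115) in WT, or 0.42 log2 units (adjusted p = 2.26e-04) without WT vehicle replicate 2. Its difference between genotypes was -0.42 log2 units (standard error 0.15, adjusted p = 0.0401), and -0.65 log2 units (adjusted p = 4.09e-05) without WT vehicle replicate 2. The call was lost in 14 of its 19 alternative fits, among them those without any one of 10 libraries (-0.31 to -0.50, adjusted p = 0.0594 to 0.0992). These were WT vehicle replicates 1 and 3, Pear1-/- vehicle replicates 2 and 3 and all bleo libraries. The call was also lost with DESeq2 (adjusted p = 0.0931) and limma (adjusted p = 0.0756).

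GBP genes lie in clusters of close copies. Gbp8, a neighbour outside the 41, was at 58.2, 126 and 58.4 normalized counts in WT vehicle, 126, 125 and 127 in Pear1-/- vehicle, 265, 260.0 and 301 in WT bleo and 57.7, 45.6 and 62.0 in Pear1-/- bleo. Its WT bleo libraries were far above all others, and it fell in Pear1-/- with a change of -1.19 log2 units (standard error 0.23, adjusted p = 3.27e-04) where it rose in WT by 1.76 log2 units (standard error 0.21, adjusted p = 2.49e-06) in edgeR's test. WT vehicle replicate 2 lay at the Pear1-/- vehicle level, above replicates 1 and 3. Of the exonic bases of Gbp7, 11.3% overlap another annotated gene, and of those of Igtp 8.01% do.

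The membrane restriction factors, which block virus at the cell surface and in endosomes or tether budding virus, were the most abundant of the 41 when averaged over all libraries. Per kilobase of exon and over all libraries, Ifitm3 was at 7620.5 normalized counts, Ifitm2 at 6005.6, Ifitm1 at 936 and Bst2 at 784, against 539 for Irf1, 439 for Isg15 and 10.95 for Oas3, the lowest. The order below Ifitm2 differed between groups, with Irf1 above Bst2 in both vehicle groups and Isg15 above Ifitm1 in WT bleo. After bleo they had no common direction in either genotype. All 4 were higher in every Pear1-/- bleo library than in every WT bleo library, as were 31.3% of all genes, and 2 of them passed the test (22.1% of all genes). Ifitm3 was at 4741, 6046 and 4329 normalized counts in WT vehicle, 5386, 5418 and 7245 in Pear1-/- vehicle, 3773, 3871 and 4033 in WT bleo and 5826, 5626 and 5708 in Pear1-/- bleo. It was lowest in WT bleo, and Pear1-/- bleo lay within the Pear1-/- vehicle range. It fell in WT with a change of -0.36 log2 units (standard error 0.12, adjusted p = 0.014), a call lost without WT vehicle replicate 2 (-0.14, adjusted p = 0.0702) or without WT bleo replicate 1 (-0.30, adjusted p = 0.0956), 2 (-0.32, adjusted p = 0.0826) or 3 (-0.35, adjusted p = 0.0557). It was higher in Pear1-/- bleo than in WT bleo by 0.54 log2 units (standard error 0.12, adjusted p = 0.00157) in edgeR's test.

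Ifitm1 was at 1095, 1662 and 969 normalized counts in WT vehicle, 1547, 1648 and 2062 in Pear1-/- vehicle, 472, 547 and 512 in WT bleo and 643, 575 and 558 in Pear1-/- bleo. All bleo libraries were far below all vehicle libraries, and within vehicle WT replicate 2 again lay among the Pear1-/- values. It fell in WT with a change of -1.27 log2 units (standard error 0.16, adjusted p = 6.16e-06), or -0.94 log2 units (adjusted p = 1.56e-12) without WT vehicle replicate 2, and in Pear1-/- with a change of -1.56 log2 units (standard error 0.16, adjusted p = 8.48e-07) in edgeR's test. Bst2 (tetherin) was at 449.9, 546 and 424 normalized counts in WT vehicle, 595, 590.0 and 698 in Pear1-/- vehicle, 840.4, 851 and 832 in WT bleo and 906, 866 and 899.8 in Pear1-/- bleo. All bleo libraries were above all vehicle libraries. It rose in WT by 0.84 log2 units (standard error 0.092, adjusted p = 1.13e-06), or 1.02 log2 units (adjusted p = 1.77e-15) without WT vehicle replicate 2, and in Pear1-/- by 0.51 log2 units (standard error 0.089, adjusted p = 1.63e-04). Ifitm2 passed in neither genotype after bleo and was higher in Pear1-/- bleo than in WT bleo by 0.41 log2 units (standard error 0.11, adjusted p = 0.00489), a call lost without WT bleo replicate 2 (0.36, adjusted p = 0.0582), and 40.9% of its exonic bases overlap another annotated gene.

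Of 6 other induced genes, 5 rose in WT (31.4% of all genes), 2 of them also in Pear1-/-, near the 28.9% of all genes that rose there. Rtp4, a chaperone of membrane receptors that also restrains flaviviruses, was at 155, 143 and 119 normalized counts in WT vehicle, 132, 136 and 134 in Pear1-/- vehicle, 342, 351 and 341 in WT bleo and 358, 354 and 374 in Pear1-/- bleo. The bleo libraries of both genotypes lay at 341 to 374 normalized counts and the vehicle libraries at 119 to 155. In WT it rose by 1.32 log2 units (standard error 0.09, adjusted p = 5.27e-09) and in Pear1-/- by 1.44 log2 units (standard error 0.088, adjusted p = 2.51e-09) in edgeR's test, and the difference between genotypes was 0.12 log2 units (standard error 0.13, adjusted p = 0.505). Parp14, an ADP-ribosyltransferase, was at 199, 259.8 and 204 normalized counts in WT vehicle, 215, 180.0 and 216 in Pear1-/- vehicle, 421, 422 and 429 in WT bleo and 163, 223 and 182 in Pear1-/- bleo. WT bleo stood alone above the other 3 groups. After bleo it rose in WT by 0.95 log2 units (standard error 0.12, adjusted p = 5.19e-06), or 1.15 log2 units (adjusted p = 7.33e-13) without WT vehicle replicate 2, had a difference of -0.097 log2 units (standard error 0.13, adjusted p = 0.515) in Pear1-/-, and differed between genotypes by -1.04 log2 units (standard error 0.17, adjusted p = 2.67e-04).

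Parp9, the partner ADP-ribosyltransferase whose gene overlaps Dtx3l over 9.4% of its exonic bases, was at 224, 277 and 253 normalized counts in WT vehicle, 267, 314 and 278 in Pear1-/- vehicle, 355, 349.8 and 334 in WT bleo and 317, 283 and 324 in Pear1-/- bleo. WT bleo was above WT vehicle without overlap, and Pear1-/- bleo overlapped its vehicle group. Its level rose in WT by 0.47 log2 units (standard error 0.094, adjusted p = 4.01e-04). Its difference between genotypes, -0.36 log2 units (standard error 0.13, adjusted p = 0.0407), was lost in 14 of its 19 alternative fits, among them those without WT vehicle replicate 1 or 3, Pear1-/- vehicle replicate 2, any one WT bleo library, or Pear1-/- bleo replicate 1 or 2 (-0.29 to -0.45, adjusted p = 0.0508 to 0.103). Xaf1, a pro-apoptotic factor, rose in WT by 0.83 log2 units (standard error 0.12, adjusted p = 1.97e-05) and had a difference of 0.22 log2 units (standard error 0.12, adjusted p = 0.113) in Pear1-/- in edgeR's test.

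Ifi44 was at 41.2, 60.9 and 51.5 normalized counts in WT vehicle, 66.3, 64.9 and 66.6 in Pear1-/- vehicle, 74.4, 85.7 and 89.1 in WT bleo and 128, 126 and 107 in Pear1-/- bleo. The Pear1-/- bleo libraries were the highest of the 12. It rose in WT by 0.70 log2 units (standard error 0.16, adjusted p = 0.00126) and in Pear1-/- by 0.87 log2 units (standard error 0.14, adjusted p = 9.69e-05), and was higher in Pear1-/- bleo than in WT bleo by 0.53 log2 units (standard error 0.14, adjusted p = 0.00641), a call lost without WT bleo replicate 1 (0.44, adjusted p = 0.0532) in edgeR's test. The rise in WT was lost with WT vehicle replicate 2 as the lone WT vehicle library (0.46, adjusted p = 0.0601). Ifi35 passed in neither genotype, at a difference of 0.19 log2 units (adjusted p = 0.155) in WT and 0.28 log2 units (adjusted p = 0.0321) without WT vehicle replicate 2.

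**Figure D5:**
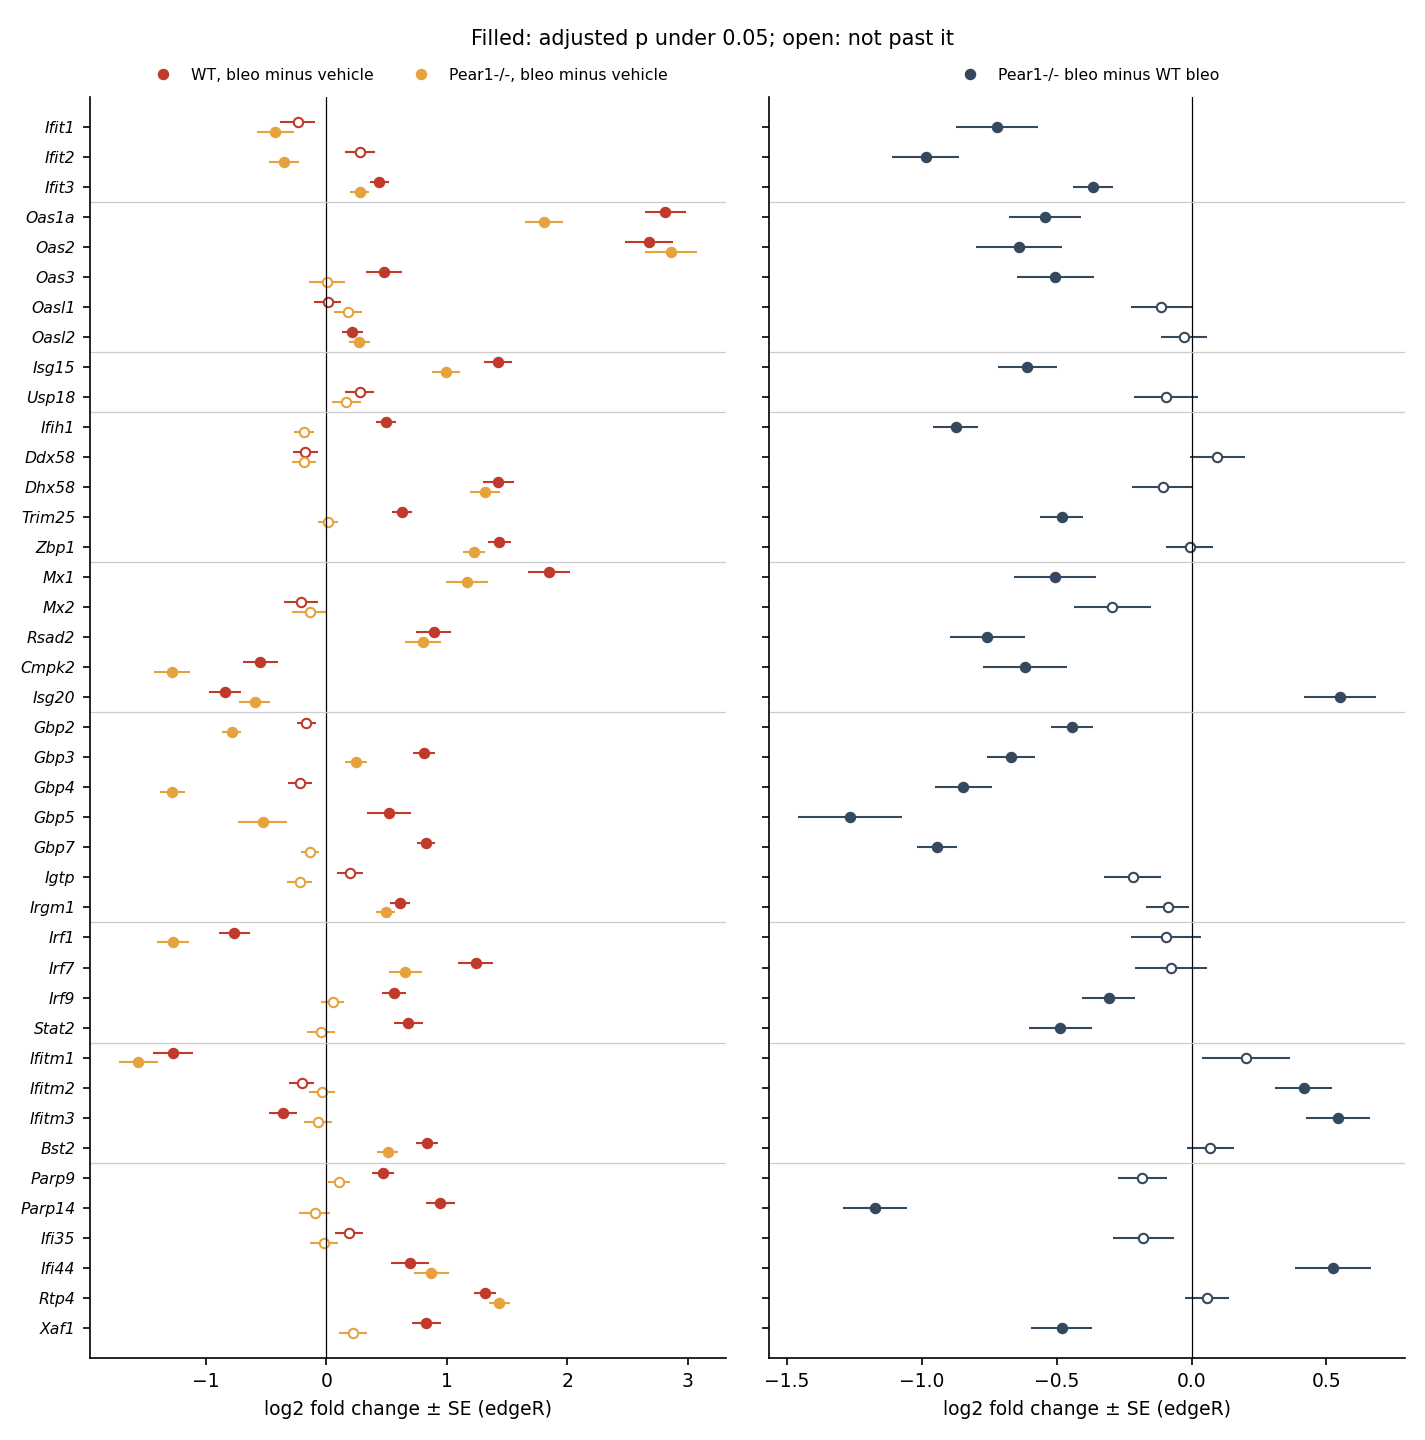
Log2 fold changes from edgeR with standard errors for the 41 interferon-stimulated genes, bleo minus vehicle in WT (red) and Pear1-/- (orange) on the left and Pear1-/- bleo minus WT bleo on the right, filled where the adjusted p was under 0.05. The largest rises are those of Oas1a and Oas2, and on the right 21 genes are lower and 4 higher.

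Other genes of the pathway, from lists of textbook members, were counted in the same test. Of 45 further interferon-stimulated genes, 29 rose and 4 fell in WT (31.4% and 36.6% of all genes), and 15 rose and 15 fell in Pear1-/-. Between the bleo groups 21 were lower and 4 higher in Pear1-/- (23.9% and 22.1% of all genes). The Pear1-/- bleo against vehicle shares, 33.3% each way, were near those of all genes (28.9% and 33.4%). The largest changes in WT were those of Oas1g, at 3.31, the chemokine gene Cxcl9, at a difference of 3.07 log2 units (standard error 0.15, adjusted p = 1.16e-10), and Ifi204, at a difference of 2.20 log2 units (standard error 0.13, adjusted p = 7.45e-10) in edgeR's test. Apol9b rose by 1.33 log2 units (standard error 0.46, adjusted p = 0.0184) in WT and by 3.71 log2 units (standard error 0.48, adjusted p = 9.15e-06) in Pear1-/-. Cxcl10, another chemokine gene, was lower in Pear1-/- bleo than in WT bleo with a difference of -1.30 log2 units (standard error 0.061, adjusted p = 3.53e-10).

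Of 14 sensors and adaptors upstream of interferon production, 11 rose in WT (31.4% of all genes), 4 rose and 2 fell in Pear1-/- (28.9% and 33.4%). Between the bleo groups 11 were lower and 1 higher in Pear1-/- bleo than in WT bleo (23.9% and 22.1%). The share that rose in Pear1-/- was near that of all genes. The endosomal receptor genes Tlr9 and Tlr7, which leukocytes express, rose in WT by 2.73 log2 units (standard error 0.21, adjusted p = 2.37e-08) and 2.04 log2 units (standard error 0.16, adjusted p = 2.46e-08) in edgeR's test. Of 8 negative regulators, 5 rose in WT (31.4% of all genes), Ptpn6, a phosphatase of blood cells, by the most, at a difference of 2.35 log2 units (standard error 0.16, adjusted p = 5.62e-09). Markers of leukocytes stood beside these changes. Of the 22, 11 rose and 8 fell in WT and 7 rose and 12 fell in Pear1-/- after bleo. The falls in WT and the rises in Pear1-/- were near the shares of all genes (36.6% and 28.9%). Ccr2, Mrc1 and Adgre1, genes of monocytes and macrophages, rose the most in WT, at 3.56, 3.30 and 3.19 log2 units. More than 2-fold, 8 markers rose and 6 fell in WT (10.5% and 23.5% of all genes), with a largest fall of -3.12. In Pear1-/- 7 rose and 9 fell more than 2-fold (8.38% and 19.4% of all genes), with a largest fall of -3.15. The medians of the 22 were 0.34 in WT and -0.55 in Pear1-/-. The 4 markers of plasmacytoid dendritic cells, strong producers of type I interferon, of which Klk1 was at 0 in some libraries, summed to 83.2 to 118 normalized counts in WT vehicle, 68.8 to 89.0 in Pear1-/- vehicle, 27.5 to 46.8 in WT bleo and 23.8 to 31.1 in Pear1-/- bleo. Whether these cell types account for any of the values was not tested.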

How the data were processed

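Full-length cDNA was made from the sorted cells with a low-input kit, sequenced in pairs, and aligned by the authors to GRCm38 with HISAT2. The counting program is not given in the sources used here. The authors deposited raw read counts per gene, and a signal table in which each count is divided by 1 size factor per library. No other columns were present, and strand was not used as far as stated.

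The counts of all 12 libraries were fitted with 4 group means in edgeR 4.0.16 (R 4.3.3) by the quasi-likelihood test, with TMM scaling, filterByExpr (17418 genes kept) and Benjamini-Hochberg adjustment. The fit was tested on simulated data. Alternatives used limma 3.58.1 on log2 of the normalized count plus 1, DESeq2 1.42.0, other scalings and filters, a replicate block and libraries left out. The study used limma, and edgeR was chosen because the files hold counts.

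Values in every library are given for the member of each role class with the highest mean, the members with the largest change in each comparison (log2 CPM 1 or more on average), and those differing over 2-fold between genotypes. Genes outside the 41 are named only where they are ligands, receptors, checks, or copies or overlapping neighbours of a member, or among the 3 largest changes of their list in a comparison, and not all of those are named. Bst2, Oas1g and Gbp8 were given by library after their values were seen. The members and lists were chosen with earlier results of these data known. Promoter windows are from RefSeq GRCm38.p6 and exons from GENCODE. Unstranded reads of overlapping genes cannot be told apart. Floors of 3 counts cover counting error only. A gene of the signalling list is not reported here.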

Additional observations from a re-analysis of the deposited data

Results flagged for a closer look

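For 19 of the 41 interferon-stimulated genes the change from vehicle to bleo differed between WT and Pear1-/-, by an edgeR test of that difference itself (adjusted p under 0.05 over all 17418 genes), and each is given here as the Pear1-/- change minus the WT change in log2 units. The GBPs and IRGs stood at -0.62 for Gbp2, -0.564 for Gbp3, -1.06 for Gbp4, -1.05 for Gbp5, -0.962 for Gbp7 and -0.417 for Igtp. The transcription factors stood at -0.508 for Irf1, -0.583 for Irf7, -0.512 for Irf9 and -0.724 for Stat2. The sensing genes stood at -0.68 for Ifih1 and -0.614 for Trim25. Among the direct antiviral genes the values were -0.627 for Ifit2, -1.01 for Oas1a, -0.68 for Mx1 and -0.73 for Cmpk2. The others were -0.363 for Parp9, -1.04 for Parp14 and -0.606 for Xaf1.

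The ligand genes passed the same test, at -1.32 for Ifnb1 and -2.41 for Ifng, the latter on few reads. Summed leukocyte markers were higher in WT bleo than in Pear1-/- bleo in every library, and their part in these differences was not tested.

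These differences lean on the WT vehicle group, in which replicate 2 differs from replicates 1 and 3. With replicate 2 as the lone WT vehicle library, 12 of the 19 still passed as lower, and the other 7 lost their calls with values still below 0, at -0.428 for Oas1a, -0.484 for Cmpk2, -0.146 for Igtp, -0.0916 for Irf1, -0.128 for Irf7, -0.271 for Irf9 and -0.217 for Parp9. Without replicate 2 all 19 remained, in a fit where 26.0% of all genes were lower and 20.4% higher. Igtp, Irf1, Irf7 and Parp9 each lost their calls in 14 of 19 alternative fits and Mx1 in 10, among them fits without 1 other library. Gbp3 and Ifit2 lost theirs with library size as the only scaling.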

How the results depend on the processing

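The limits are few libraries, unlike WT vehicle replicates, unknown numbers of mice, leukocyte RNA in a fibroblast sort, and close gene copies. In all, 20 alternative fits were run, 1 of them, with WT vehicle replicate 2 as the lone WT vehicle library, chosen after seeing the data. Of these, 13 to 19 bear on any 1 comparison. Of the calls made, those in every fit numbered 21 of 25 higher and 4 of 5 lower for WT bleo against vehicle, 12 of 15 and 6 of 9 for Pear1-/- bleo against vehicle, 2 of 4 and 16 of 21 for Pear1-/- bleo against WT bleo, and 9 of 19 lower for the difference between genotypes.

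With library size as the only scaling, which moved the median of all genes in WT bleo against vehicle from -0.071 to -0.168 and in the vehicle groups to -0.151, 9 genes fell in WT, 6 were lower between the vehicle groups, 1 gene passed as higher in the difference between genotypes and 0 were lower by more than 2-fold. In that fit 11675 of all 17418 genes passed in either direction in WT bleo against vehicle. Between the vehicle groups 1943 did, and for the difference between genotypes 6543 did. The medians of the 41 were then 0.391 in WT, -0.039 between vehicle groups and -0.216 for the difference between genotypes. With no filter on low counts, which moved the median of all genes in WT to -1.48, the medians were 0.635, 0.197 and -0.442, and 9 genes were higher and 3 lower between the vehicle groups. In that fit 5638 of 40760 genes passed in either direction between the vehicle groups. Between the vehicle groups limma gave 0 higher and 0 lower, as did the fit of only the groups compared. Over all genes 33 of 17418 passed there with limma and 0 of 16422 in the other fit, so these counts are not particular to the 41.

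With WT vehicle replicate 2 as the lone WT vehicle library, 9 genes fell in WT, 3 of them by more than 2-fold, 0 were higher and 0 lower between the vehicle groups (median -0.0173), and for the difference between genotypes 3 were higher, 2 were lower by more than 2-fold and the median was -0.271. Ifit1 then reversed in WT, to 0.263 from -0.24 log2 units. The cause of these shifts was not tested.

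Leaving out 1 library at a time gave, for WT bleo against vehicle, 24 to 29 higher and 4 to 6 lower, 8 to 10 and 0 to 1 of them by more than 2-fold, with medians of 0.472 to 0.611. For Pear1-/- bleo against vehicle it gave 12 to 14 higher and 6 to 9 lower, 6 to 7 and 4 to 4 by more than 2-fold, with medians of -0.0403 to 0.0738. For Pear1-/- bleo against WT bleo it gave 3 to 4 higher and 19 to 21 lower, 2 to 3 lower by more than 2-fold, with medians of -0.383 to -0.275. Between vehicle groups it gave 0 to 19 higher and 0 to 7 lower, 0 to 1 lower by more than 2-fold, with medians of 0.0498 to 0.194. For the difference between genotypes it gave 0 to 0 higher and 14 to 24 lower, 1 to 5 by more than 2-fold, with medians of -0.527 to -0.298. The 19, 7 and 24 came without WT vehicle replicate 2. More than 2-fold lower differences between genotypes numbered 1 without WT vehicle replicate 1 and 2 without WT vehicle replicate 3, against 4 with all libraries.

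The replicate numbers did not pair the libraries, since the deviations of same-numbered libraries correlated at only -0.161 to 0.1. With the replicate number as a block, all counts of calls were as in the unblocked fit, and of the 19 genes whose change differed between genotypes 18 were shared, with Parp9 lost (-0.364, adjusted p = 0.056) and Isg15 gained.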
